A study of Mus musculus with 2 samples.

Results

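Microglia and brain macrophages made up 75 of 16213 cells kept from 2 single-cell libraries of the mouse cerebral cortex at embryonic day 16.5. A cell was kept when its barcode held 1500 to 60000 unique molecular identifiers (UMIs, each standing for 1 captured RNA molecule) and under 10% mitochondrial UMIs. It was counted as a microglial cell or macrophage when at least 3 of 8 marker genes (C1qa, C1qb, C1qc, Csf1r, Cx3cr1, Tyrobp, P2ry12 and Mrc1) had a UMI, and when Neurod6, Gad2 and Cldn5, which mark excitatory neurons, GABAergic neurons and endothelial cells, were all at 0. Replicate 1 held 20 such cells of 5966, a share of 0.335% (exact 95% binomial interval 0.205 to 0.517), and replicate 2 held 55 of 10247, a share of 0.537% (0.405 to 0.698). The intervals, which cover counting error only, overlapped, and the mean share was 0.436% ± 0.142 (SD, n = 2 libraries).

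Microglia are the resident macrophages of the brain tissue. They descend from progenitors of the yolk sac, enter the brain early in development, depend on signals through the receptor CSF1R, and are known for clearing dying cells, engulfing synaptic material and sensing nucleotides through P2RY12. Border-associated macrophages share much of this programme but live in the meninges, around vessels and in the choroid plexus, and commonly carry the mannose receptor encoded by Mrc1.

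Both libraries were labelled wild type (WT) and came from control embryos of a line called EomesDot, so the series held a single group and allowed no comparison between conditions. Cortices were dissociated with papain and run with 3′ chemistry of 10x Genomics. The labels did not state how many embryos entered a library, and nothing marked the cells of single animals, so a p-value here measures the spread between 2 libraries, which may be technical. Choroid plexus and meninges were not named in the labels as kept or removed.

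The 2 count tables held 46398156 and 64324236 UMIs in 9049 and 13556 barcodes. Of these barcodes, 40 occurred in both tables, 21 of them among the kept cells and 0 among the microglia and macrophages. The median was 3424 UMIs per microglial cell or macrophage in replicate 1 and 5523 in replicate 2, against 5706 and 4938 over all kept cells. Summed, they gave 105679 and 349683 UMIs, so that 1 UMI was worth 9.46 and 2.86 CPM (the UMIs of a gene scaled to a total of 1000000 UMIs in the summed cells). Replicate 1 was therefore the less precise of the pair.

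The cells were chosen by the UMI counts of these 11 genes, so the marker levels are a description and carry no test. C1qa, C1qb and C1qc, which encode the chains of the complement starter C1q, reached 2754, 2725 and 1902 CPM in replicate 1 and 2414, 2294 and 1807 CPM in replicate 2. Tyrobp, the adaptor through which several myeloid receptors signal, stood at 2091 and 2311 CPM, and Csf1r at 729 and 892 CPM. Cx3cr1, the receptor for fractalkine, was at 748 and 778 CPM. These 6 genes differed little between the libraries, whereas P2ry12 was at 634 and 369 CPM and Mrc1 at 1760 and 3277 CPM. C1qa had a UMI in 18 of 20 and 54 of 55 cells. In excitatory neurons, which should lack it, C1qa had a UMI in 0.359% and 0.905% of cells at median depths of 7454 and 6219 UMIs.

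All 8 markers were found in 2 and 18 cells, at least 6 in 12 and 41, and exactly 3 in 3 and 2. The cells with exactly 3 markers held a median of 9 and 4 marker UMIs, and Fcer1g, which the selection did not use, was found in 2 and 1 of them. Just outside, 12 and 13 barcodes had 2 markers and the neuronal and endothelial genes at 0, with a median of 2 marker UMIs in both libraries and Fcer1g in 1 and 1 of them.

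The 3 genes held at 0 set aside 13 and 46 barcodes that had at least 3 markers, with median depths of 8353 and 6926 UMIs. Of these, 7 and 21 carried just 1 UMI of the 3 genes, and 3 and 22 carried Pf4. Barcodes with over 20% globin UMIs and fewer than 2 selection markers numbered 141 and 227, at median depths of 2825 and 3215 UMIs. Neurod6 had a UMI in 19.9% and 22.5% of them, Gad2 in 6.38% and 5.73% and Cldn5 in 2.84% and 11%. P2ry12 and Mrc1 had none there. The limit on markers held down all selection markers but not Neurod6, Gad2 or Cldn5, so the shares of the 2 kinds of gene cannot be compared. Other macrophage genes were found there, in replicate 1 Pf4 in 1.42% and C1qc and Fcer1g in 0.709% of barcodes, and in replicate 2 C1qa and C1qb in 1.76%, Cx3cr1, Tyrobp and Fcer1g in 1.32%, Csf1r in 0.441% and Pf4 in 3.96% of barcodes. Apoe was found in 12.1% and 18.5% of them. How many of the barcodes set aside were macrophages was not tested. Whether the UMIs in the globin-rich barcodes were free RNA or came from doublets was not tested either.

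Genes outside the selection bear on the label. Fcer1g, the signalling chain of Fc receptors, stood at 1400.5 and 2045 CPM in the microglia and macrophages and had no UMI in 29 and 69 endothelial cells. Ctss, a lysosomal protease of myeloid cells, was at 785 and 609 CPM, Trem2, a lipid-sensing receptor of microglia, at 549 and 375 CPM, and Spi1, which encodes the myeloid master factor PU.1, at 331 and 243 CPM, and all 3 were at 0 in endothelial cells. The mean CPM of the 2 libraries was set against the mean of the floors that a count of 0 allows (3 UMIs in the endothelial sum of each library). By these means, and not in each library, Fcer1g was at least 202-fold, Ctss at least 81.6-fold, Trem2 at least 54.0-fold and Spi1 at least 33.6-fold higher. Trem2 and Spi1 passed the filter on low counts (at least 10 in at least 2 sums of a cell class and library) only through the microglia and macrophages, so they had to differ. Ptprc, the pan-leukocyte antigen CD45, was found in 8 of 20 and 29 of 55 cells, at 142 and 194 CPM.

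Transcripts of genes listed for other leukocytes were nearly absent. All 14 genes listed for monocytes and neutrophils, among them Ly6c2, Ccr2, S100a8 and Mpo, had no UMI in the 75 cells, which allows a share of up to 4% of cells with a UMI of any such gene (3 of 75). That is a limit on cells with a UMI at these depths and not on the number of such cells. Of 16 genes listed for lymphocytes, dendritic cells and mast cells, 15 were at 0. The exception was Siglech, with 16 and 53 UMIs, which dendritic cells and microglia both express. Erythroid genes came to 98 and 3942 UMIs, and 2 cells of replicate 2 held over 5% globin UMIs, up to 37.1%. Some of this RNA was among the calls of the comparisons given further on. Of 6 tested erythroid genes, 4 were called higher than the mean of the other classes (all genes, 11.5%). Against endothelial cells 3 of the 6, and also Gad1 and Fabp7, were called higher (all genes, 7.27%). Radial glial Fabp7 had UMIs in 14 of 20 and 45 of 55 cells, 129 of its 286 UMIs in replicate 2 coming from a single cell, and the GABAergic RNA Dlx6os1 in 4 and 2 cells. The part of such RNA in the results was not tested beyond leaving out the 2 globin-rich cells.

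P2ry12 and Mrc1 divided the cells. P2ry12 without Mrc1 was found in 7 and 15 cells (35.0% and 27.3%), Mrc1 without P2ry12 in 3 and 11 cells (15% and 20%), both in 4 and 21 cells (20% and 38.2%), and neither in 6 and 8 cells (30% and 14.5%). Depth followed these classes: the median was 2970 and 3744 UMIs with P2ry12 alone, 8584 and 5523 with Mrc1 alone, 5576 and 9300 with both, and 2096 and 1888 with neither. When every cell was thinned to 1500 UMIs, the share with both fell from a mean of 29.1% to 4.55%, and that with Mrc1 alone went from 17.5% to 35.9%. There were then 6 and 23 cells with Mrc1 alone and 7 and 12 with P2ry12 alone. The order of the single-positive classes thus turned with depth in replicate 2 and stayed in replicate 1. With under 10 cells of either single-positive class in replicate 1, no test between the classes was made.

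Pf4, which encodes platelet factor 4 and is a marker of border-associated macrophages, separated the cells that carried both genes. Each of the 14 cells with Mrc1 alone had at least 3 Pf4 UMIs, while the 22 cells with P2ry12 alone had 0, except for 1 cell with 1 UMI. Among the cells with both, those rich in Pf4 had 1 to 5 P2ry12 UMIs beside many Mrc1 UMIs, and those without Pf4 had few Mrc1 UMIs.

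**Figure D1:**
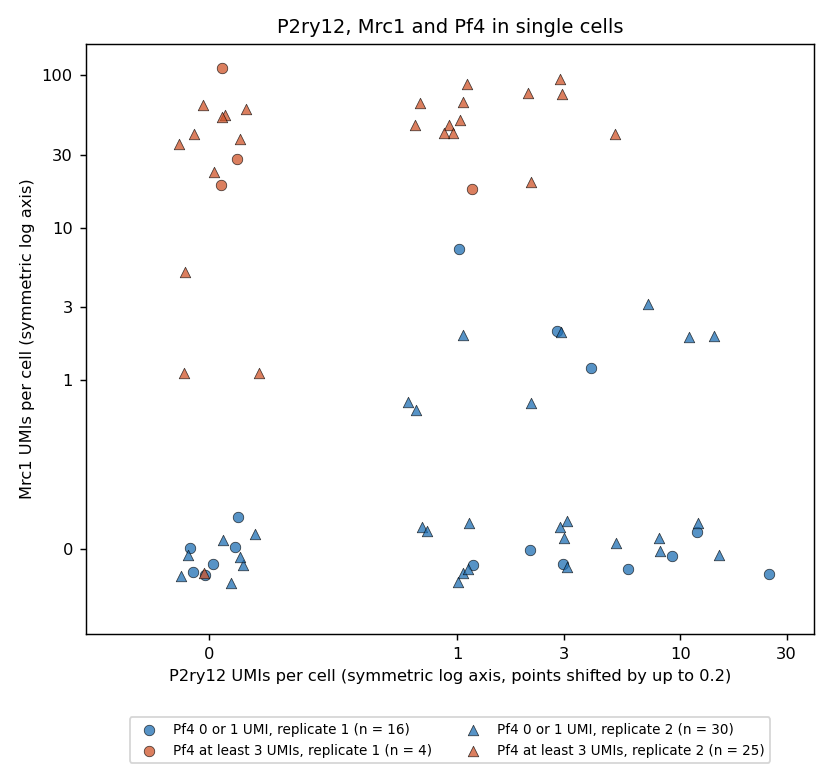
UMIs of P2ry12 (x) and Mrc1 (y) in each of the 75 cells, on symmetric log axes with points shifted by up to 0.2, coloured by Pf4. All 29 cells with at least 3 Pf4 UMIs (4 in replicate 1, 25 in replicate 2) are drawn in orange, and 28 of them have more Mrc1 than P2ry12 UMIs.

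The cells were therefore also divided by which of the 2 genes had more UMIs, a choice made after the values were seen: 5 and 25 cells had more Mrc1, 9 and 20 had more P2ry12, and 2 in replicate 2 had equal counts. On the Mrc1 side Pf4 summed to 7621 and 12015 CPM, against 0 and 9.98 CPM on the P2ry12 side. F13a1, which encodes a subunit of coagulation factor XIII, stood at 3116 and 4703 CPM, Lyve1, a hyaluronan receptor of macrophages along vessels and in the meninges, at 919 and 1774 CPM, and Ms4a7 at 516 and 610 CPM, and all 3 had no UMI in the 29 cells of the P2ry12 side. Dab2, an endocytic adaptor, was at 2062 and 2675 CPM against 90.2 and 99.8 CPM, and the scavenger receptor gene Stab1 at 650 and 1354 CPM against 22.6 and 120 CPM. Both libraries thus placed these 6 genes on the Mrc1 side. Cd209f, another border macrophage gene, had no UMI on either side.

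Of the 18 listed homeostatic microglial genes, 16 had the higher CPM on the P2ry12 side in both libraries, and of the 18 listed border macrophage genes 16 had it on the Mrc1 side. Any difference in CPM counted, also in genes of few UMIs such as Lag3 and Golm1. The share over all genes was not computed, so these counts carry no test. The homeostatic genes that departed were Bin1, at 722 and 409 CPM on the P2ry12 side against 448 and 859 CPM, and Ltc4s, at 564 and 250 CPM against 359 and 540 CPM, so that the libraries differed in direction for both. Sall1, a transcription factor of microglia, had 12 and 21 UMIs on the P2ry12 side, in 7 of 9 and 11 of 20 cells, and none in the 30 cells of the Mrc1 side. Siglech had UMIs in 6 of 9 and 14 of 20 cells of the P2ry12 side and in 0 of 5 and 1 of 25 of the Mrc1 side, and Olfml3 in 7 of 9 and 11 of 20 against 0 of 5 and 1 of 25. Tmem119 summed to 293 and 170 CPM against 0 and 4.62 CPM. Crybb1, a crystallin gene expressed in microglia, was at 2008 and 988 CPM against 112 and 69.3 CPM, and Sparc at 947 and 828 CPM against 0 and 18.5 CPM. Trem2 was at 1015 and 938 CPM against 157 and 143 CPM.

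Other genes were well detected on both sides. Csf1r stood at 628 and 873 CPM on the Mrc1 side and 1060 and 1108 CPM on the P2ry12 side, and Tyrobp at 1816 and 2652 against 2346 and 1826 CPM. Fcrls, often listed as microglial, was detected in 5 of 5 and 24 of 25 cells of the Mrc1 side and in 8 of 9 and 19 of 20 of the P2ry12 side. The lysosomal protease gene Ctsb was at 2421 and 1612 CPM against 1241 and 1777 CPM.

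**Figure D2:**
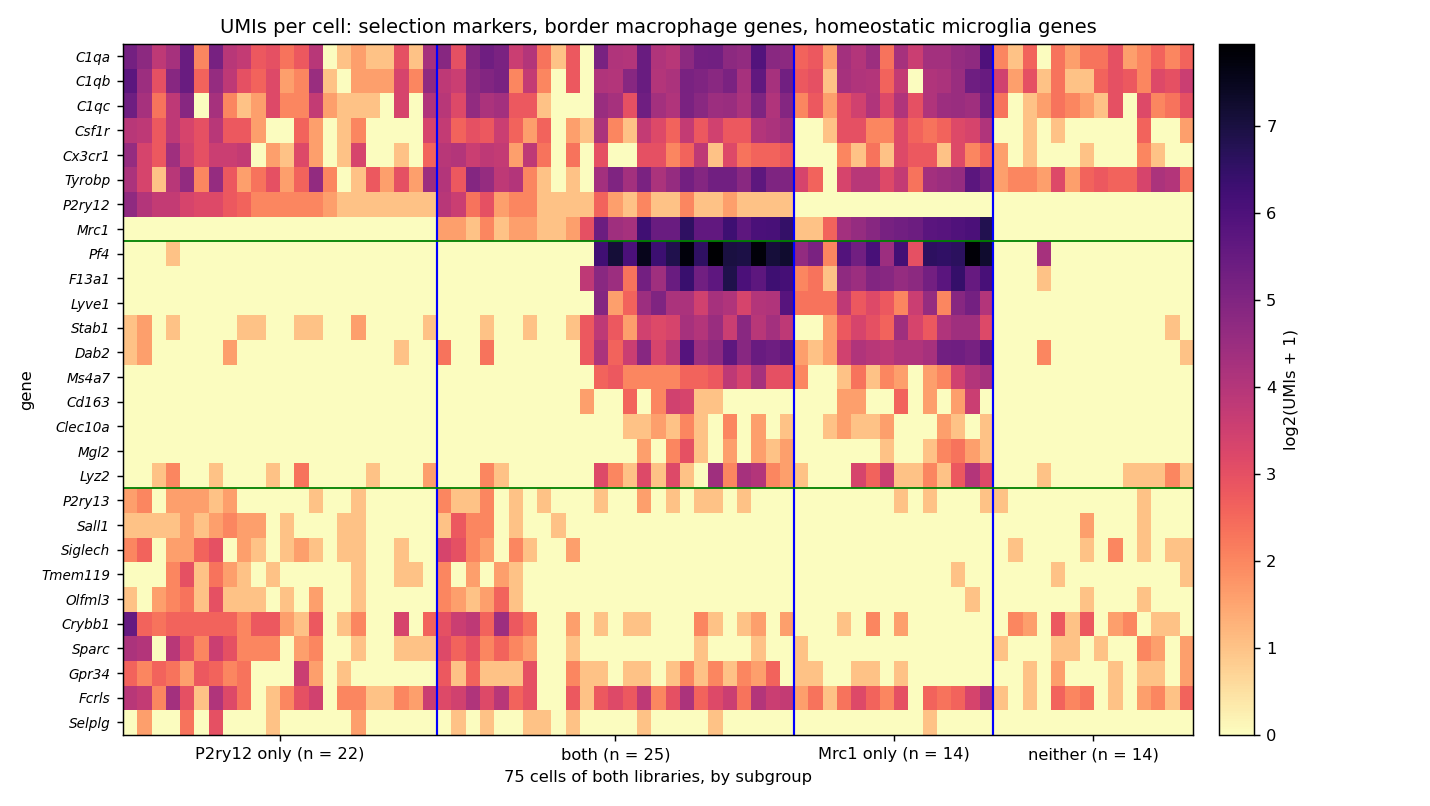
UMIs per cell, as log2(UMIs + 1), for 28 genes (rows, in 3 blocks: selection markers, border macrophage genes, homeostatic microglial genes) in the 75 cells (columns, by whether P2ry12 and Mrc1 were detected; n is the number of cells). Pf4, F13a1 and Lyve1 fill the 14 cells with Mrc1 alone and part of the 25 with both, and Sall1, Siglech and Tmem119 lie almost wholly in the remaining cells.

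The 14 cells with neither gene were the shallowest. Crybb1 was found in 5 of 6 and 4 of 8 of them, and 1 cell of replicate 2 held 18 Pf4 UMIs. A cell of replicate 1 departed from the pattern with 7 Mrc1 and 13 F13a1 UMIs but no Pf4 UMI. It had just 3 of the 8 markers (Csf1r, P2ry12 and Mrc1) and no UMI of C1qa, C1qb, C1qc, Tyrobp, Fcer1g or Apoe. It had 12 UMIs over 7 of the listed GABAergic genes and is counted among the 5 cells of the Mrc1 side of replicate 1. Other cells departed as well. In replicate 2, a cell with equal counts of P2ry12 and Mrc1 had 3 marker UMIs in 11578 UMIs and no Fcer1g. It held 89 UMIs over 6 listed progenitor genes. In the same library, a cell of the P2ry12 side had 23 UMIs over 5 GABAergic genes and no Fcer1g. Another, on the Mrc1 side by 2 UMIs against 1, had no Pf4, F13a1 or Lyve1. In replicate 1, a cell with neither gene had 25 UMIs over 6 GABAergic genes.

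Without regard to any list, 13080 genes had a UMI in the divided cells. Of these, 41 were found in at least 50% of the cells of the Mrc1 side and at most 15% of the P2ry12 side in both libraries, and 6 the other way round. Of the 41, 32 were in no gene list, among them Colec12, a scavenger receptor (583 and 628 CPM, against no UMI), Ednrb, an endothelin receptor (381 and 323 CPM), Aoah, an enzyme that inactivates lipopolysaccharide (202 and 346 CPM), and Hmox1, the haem-degrading oxygenase (516 and 115 CPM). On the P2ry12 side the 6 included Olfml3, Plxdc2, Sall1, Serpine2 and Siglech. The thresholds were set after the values were seen, and the larger depth of the Mrc1 side (medians of 7997 and 9225 UMIs against 2970 and 4704) moved with the larger number of genes found there.

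Chemokine genes differed between the libraries on the Mrc1 side. The listed chemokines and cytokines summed to 21160 CPM in the 5 cells of replicate 1 and to 1187 CPM in the 25 cells of replicate 2, against 248 and 988 CPM on the P2ry12 side. Ccl2, which attracts monocytes, was at 3071 and 134 CPM, Ccl7 at 1278 and 60.1 CPM and Ccl3 at 2062 and 37.0 CPM. Cell by cell in replicate 1, Ccl2 had 38, 18, 71, 10 and 0 UMIs, and Cxcl2, a neutrophil attractant, had 216, 117, 0, 0 and 0 UMIs. So 4 of the 5 cells carried the signal and 1, the cell without Pf4, did not. Without the cell that held most of these UMIs (45.2%) the sum in replicate 1 was 13806 CPM.

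Immediate early and heat shock genes had 253, 177, 276, 26 and 2 UMIs in the same 5 cells, so that 3 of the 4 cells with chemokine UMIs also held most of these. That list summed to 16453 CPM on the Mrc1 side of replicate 1 and 2342 CPM in replicate 2, and to 1827 and 2954 CPM on the P2ry12 side. Hspa1a, an inducible heat shock protein gene, was at 3654 and 282 CPM on the Mrc1 side. In endothelial cells the same list came to 2213 and 2125 CPM. Such genes are known to respond to tissue dissociation, whose part in the chemokine signal was not tested, and 2 libraries allow no test of the difference.

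**Figure D3:**
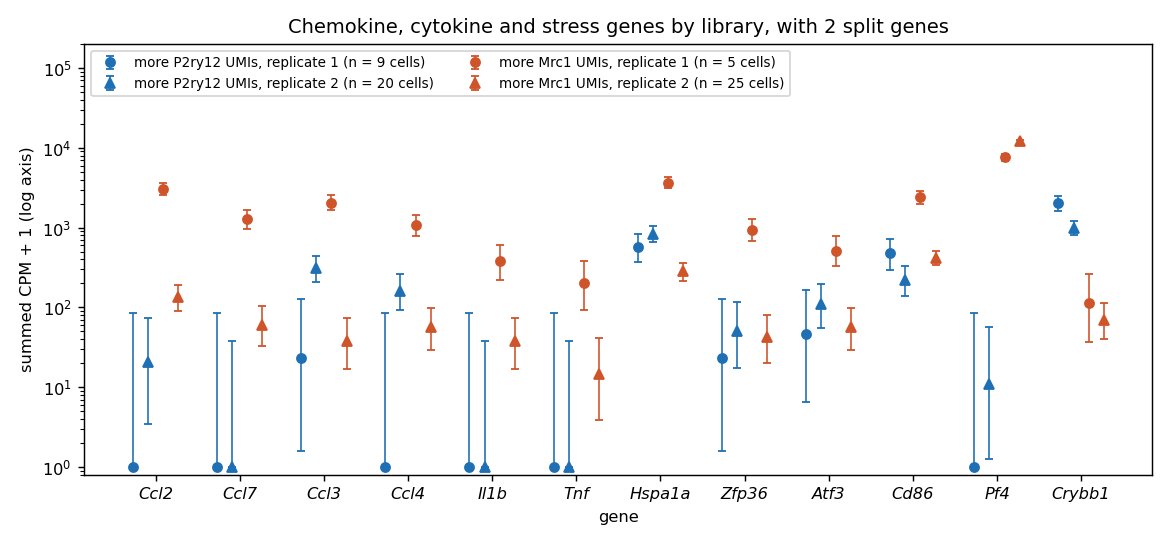
Summed CPM + 1 (log axis) of 12 genes in the cells with more P2ry12 or more Mrc1 UMIs, by library, with exact 95% Poisson intervals of the counts. Ccl2 stands at 3071 CPM on the Mrc1 side of replicate 1 and at 134 CPM on that of replicate 2, while Pf4 and Crybb1 keep their sides in both.

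The cells were next set against other cells of the cortex. Endothelial cells (29 and 69), progenitors (308 and 496), excitatory neurons (2229 and 3645) and GABAergic neurons (1066 and 1511) were gathered by their own markers, and UMIs were summed per class and library and compared with the edgeR quasi-likelihood test, with Benjamini-Hochberg adjusted p under 0.05 as a call. Of 16197 genes tested, 1178 were called higher (7.27%) and 1222 lower (7.54%) in microglia and macrophages than in endothelial cells. Against the mean of the 4 classes, 1870 were called higher (11.5%) and 1641 lower (10.1%). The cells were gathered by expression in these same libraries, so the calls describe the gathered cells and are not independent evidence that they form a type. The 8 markers and the 3 genes held at 0 were left out.

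Against the mean of the other classes, the 15 largest increases at 100 CPM or more were in genes of which all but Fcer1g passed the filter on low counts only through the microglia and macrophages, so that these 14 had to differ. Ms4a6c, Ms4a6b and Ms4a6d, of a family of membrane proteins in leukocytes, stood at 218 and 398, 123 and 329, and 123 and 143 CPM in the microglia and macrophages. Adgre1, which encodes the macrophage antigen F4/80, was at 388 and 412 CPM, Clec4a2, an inhibitory lectin receptor, at 218 and 214 CPM, and Fcna, a ficolin that recognises sugars, at 123 and 246 CPM. Rac2, a GTPase of blood cells, was at 227 and 129 CPM and Tnfaip8l2 at 161 and 177 CPM. None of these 8 genes exceeded 1 CPM in any of the other 4 classes in either library. The mean CPM of Adgre1 over both libraries was at least 46.8-fold higher than the mean floor in endothelial cells. Cd86, a co-stimulatory molecule, reached 1211 and 329 CPM, and Ccl2, Ccl7, Ifi207, Gm2629, Fcer1g and Spi1 completed the 15.

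The largest decreases lay in genes that had no UMI in the microglia and macrophages. Against endothelial cells these were Igfbp7 (1218 and 1341 CPM in endothelial cells, at least 69.2-fold lower), Ramp2 (1236 and 1244 CPM, at least 67.1-fold), Pglyrp1 (815 and 778 CPM), Mecom (705 and 838 CPM) and Col4a2, a basement membrane collagen (524 and 621 CPM). Against the mean of the classes they were Ldb2, Cachd1, Ebf1, Cntnap2 and Gli3, of which Gli3, a mediator of hedgehog signalling, stood at 490 and 466 CPM in progenitors.

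Called higher than the mean (all genes, 11.5%) were 15 of 17 tested homeostatic microglial genes and 11 of 11 tested border macrophage genes. Against endothelial cells 14 and 11 were called higher (all genes, 7.27%). Of these, 5 and 6 passed the filter on low counts only through the microglia and macrophages, so they had to differ. Lag3 and Golm1 were called in neither comparison. Sparc, a matrix protein also made by vessels, was called higher than the mean of the classes but lower than endothelial cells, at 445 and 266 CPM against 2312 and 2347 CPM in endothelial cells (log2 fold change -2.87 ± 0.19, edgeR adjusted p = 1.21e-14).

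Transcription factors of the lineage were higher. Of 18 tested genes listed for CSF1R signalling and lineage, 16 were called higher and 0 lower against the mean (all genes, 11.5% and 10.1%). Against endothelial cells 10 were called higher and 3, Smad3, Fli1 and Mef2a, lower (all genes, 7.27% and 7.54%). Of the 18, 2 passed the filter only through the microglia and macrophages. Maf rose by 6.31 ± 0.14 (log2 fold change ± SE, edgeR adjusted p = 3.33e-30) against the mean, at 1136 and 1619 CPM. Runx1, needed for blood formation, stood at 606 and 232 CPM and rose by 9.02 ± 0.37. Irf8, which microglia need, was at 75.7 and 129 CPM and rose by 6.36 ± 0.51. Fli1, an ETS factor shared by blood and endothelium, rose by 5.38 ± 0.24 against the mean but was lower than in endothelial cells, where it stood at 432 and 565 CPM against 322 and 297 CPM (log2 fold change -0.75 ± 0.19, edgeR adjusted p = 0.00403).

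PU.1, the product of Spi1, is known to bind purine-rich sites. Promoters were therefore searched on both strands for the letters GAGGAAGT, 1 form of such a site, in the window from 250 bases before to 50 after the RefSeq start (assembly GRCm38.p6). The match is shown for C1qc, a selection marker, and for Pf4, a border macrophage gene high on the Mrc1 side, each read 5′ to 3′ on the strand where the motif (capitals) runs forward. The first lies at chr4:136893091-136893120, read on the plus strand, and the second at chr5:90772405-90772434, read on the minus strand.
C1qc: tgtgccaaaatGAGGAAGTgtctgccgtcc
Pf4: atGAGGAAGTgctctgcagaagcaatgaca
The letters occurred in 997 of 27025 promoters of the table (3.69%), in 1 of 5 matched selection markers, in 2 of 13 matched border macrophage genes, and in 3 of 19 lysosomal genes. They also occurred in 6 of 12 matched genes of monocytes and neutrophils, which had no UMI in these cells, in 3 of 10 purinergic and neuron-sensing receptors, 2 of 13 axon tract genes and 1 of 7 endothelial genes. No match was found for the other lists, among them homeostatic microglial genes (0 of 11), phagocytic receptors and adaptors (0 of 17) and CSF1R signalling and lineage (0 of 15). These are matches of letters and not measured binding.

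Lysosomal genes were nearly all higher. All 22 tested genes of that list passed the filter on low counts through other classes too. Of them, 21 were called higher than the mean (all genes, 11.5%) and 19 higher than endothelial cells (all genes, 7.27%), and none lower in either. The list's median log2 fold change was 3.91 against the mean (all genes tested, -0.49) and 2.96 against endothelial cells (all genes tested, -0.03). The cathepsin gene Ctsb was at 1646 and 1570 CPM against 53.1 and 58.2 CPM in endothelial cells, and Ctsd at 1287 and 1510 against 63.7 and 60.3 CPM. Lgmn, an asparaginyl protease, was at 1391 and 1218 CPM against 53.1 and 58.2 CPM. Gaa, which encodes the glucosidase that breaks down glycogen, was called in neither comparison.

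Receptors for uptake were also higher. Of 16 tested phagocytic receptors and adaptors, 14 were called higher than the mean (all genes, 11.5%) and 13 higher than endothelial cells (all genes, 7.27%). No gene of the list was called lower, although 6 of the 16 passed the filter only through the microglia and macrophages and so had to differ. Mertk, a receptor for bridged phosphatidylserine on dying cells, stood at 255 and 292 CPM against 0 and 2.16 CPM in endothelial cells. Its relative Axl was found in 1 of 20 and 1 of 55 cells, at 9.46 and 8.58 CPM, and was not called. Cd68, a lysosomal glycoprotein of macrophages, was at 255 and 317 CPM and Fcgr3, an Fc receptor, at 331 and 423 CPM. Among complement genes Itgam, the CR3 subunit CD11b, was at 406 and 230 CPM on the P2ry12 side and 112 and 9.24 CPM on the Mrc1 side, while C3 had 0 and 1 UMI in all.

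**Figure D4:**
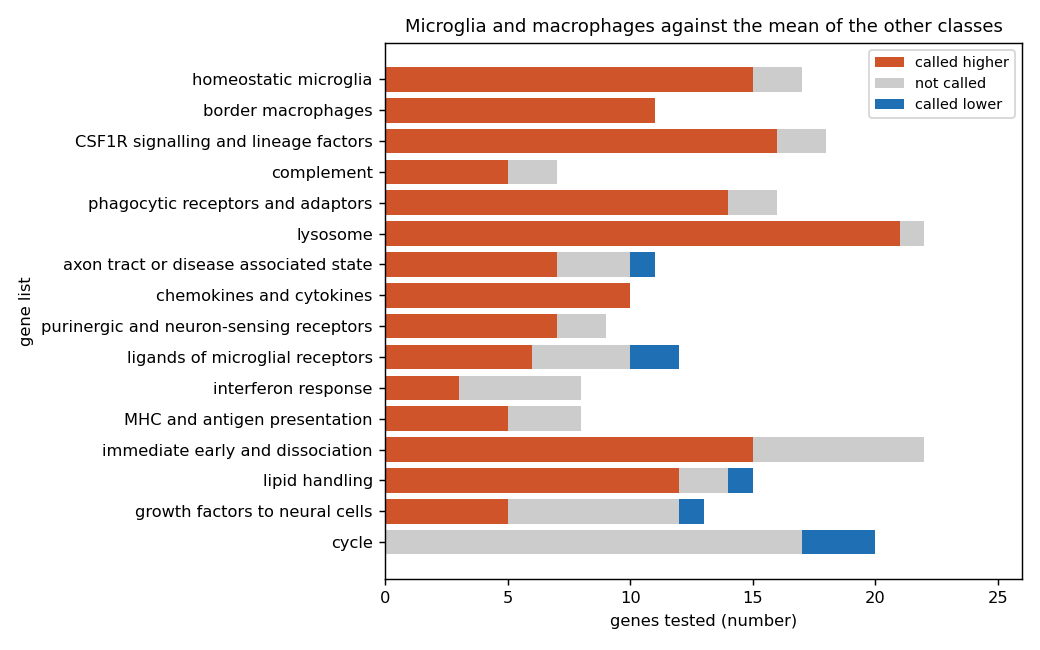
Number of tested genes of each list called higher (orange), not called (grey) or called lower (blue) in microglia and macrophages than in the mean of endothelial cells, progenitors, excitatory and GABAergic neurons (edgeR, adjusted p under 0.05). Of 22 lysosomal genes 21 were called higher, and of 20 cycle genes 0 were higher and 3 lower. Over all genes, 11.5% were called higher and 10.1% lower.

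Receptors for nucleotides and related signals followed. Of 9 tested purinergic and neuron-sensing receptors 7 were called higher and 0 lower than the mean (all genes, 11.5% and 10.1%). Against endothelial cells 7 were called higher and 1, Adora2a, lower (all genes, 7.27% and 7.54%). Of the 9, 3 passed the filter only through the microglia and macrophages. Gpr34, a receptor for lysophosphatidylserine, stood at 474 and 519 CPM on the P2ry12 side and 67.2 and 129 CPM on the Mrc1 side, and P2ry13, an ADP receptor, at 180 and 170 CPM against 22.4 and 41.6 CPM. P2ry6, a UDP receptor linked to engulfment, was at 158 and 170 CPM against 67.2 and 134 CPM. The values of all 3 were higher on the P2ry12 side in each library.

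The listed ligands were spread over the microglia and macrophages and other classes. Il34, a ligand of CSF1R, had no UMI in microglia and macrophages and stood at 116 and 85.1 CPM in mural cells (15 and 30 cells) and 59.6 and 55.5 CPM in fibroblasts (13 and 59 cells), classes too small for the test. Csf1, the other ligand, was at 66.2 and 48.6 CPM in the microglia and macrophages and 53.6 and 41.6 CPM in fibroblasts, and at no more than 7.87 CPM in progenitors and neurons. Tgfb2 was at 0 in microglia and macrophages and at 90.1 and 130 CPM in progenitors, while Tgfb1 was at 66.2 and 140 CPM in microglia and macrophages. Tgfbr1, a subunit of the TGF-beta receptor, was at 451 and 719 CPM on the P2ry12 side and 22.4 and 41.6 CPM on the Mrc1 side. Csf1 lay on the same side, at 158 and 160 CPM in 1 of 9 and 6 of 20 cells, against 0 and 4.62 CPM. Cx3cl1, the ligand of CX3CR1, did not exceed 6.47 CPM in any class.

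Gas6, a bridge between dying cells and MERTK, was itself expressed in these cells, at 379 and 518 CPM against 63.7 and 32.3 CPM in endothelial cells (log2 fold change 3.42 ± 0.31, edgeR adjusted p = 6.04e-11). It stood at 560 and 721 CPM on the Mrc1 side and 338 and 230 CPM on the P2ry12 side. Cd200, which restrains microglia, was lower in the microglia and macrophages (0 and 11.4 CPM) than in excitatory neurons (68.8 and 69.4 CPM). Over the 12 listed ligands 6 were called higher and 2 lower (Tgfb2 and Cd200) than the mean of the classes (all genes, 11.5% and 10.1%). Against endothelial cells 2 were called higher (Gas6 and Cd47) and 3 lower (Tgfb2, Cxcl12 and Cd200), beside 7.27% and 7.54% of all genes. The median log2 fold change of the list there was -0.16.

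**Figure D5:**
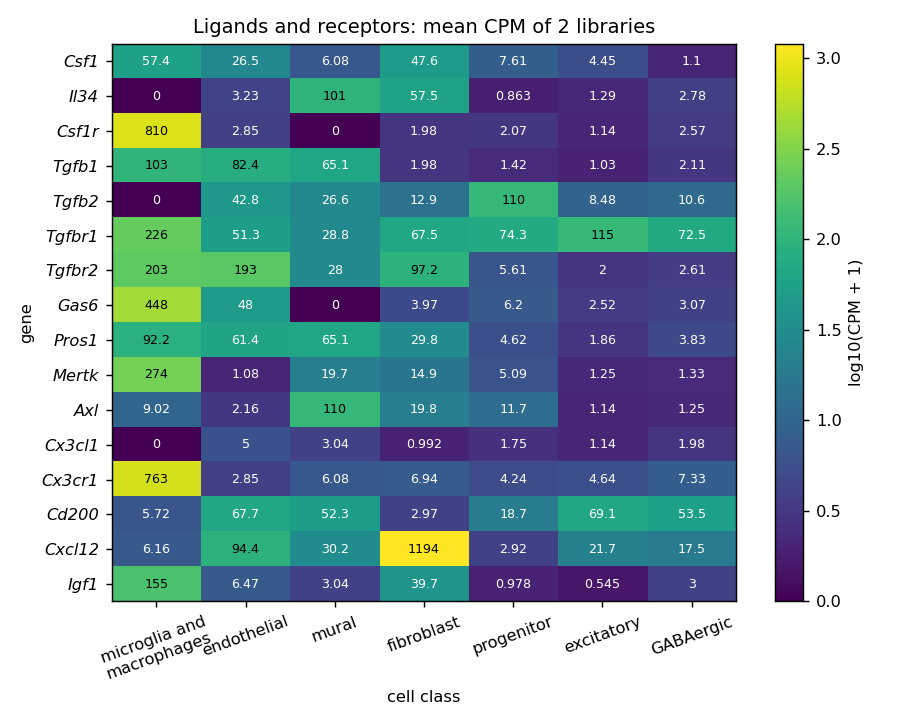
Mean CPM of the 2 libraries for ligands and receptors (rows) in 7 cell classes (columns), coloured by log10(CPM + 1). Csf1r and Cx3cr1, used for the selection, and Mertk and Gas6 are brightest in microglia and macrophages, Il34 in mural cells and fibroblasts, and Cxcl12 in fibroblasts.

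Genes of the state that microglia enter along developing axon tracts were mixed. Of 11 tested genes 7 were called higher and 1, Fabp5, lower than the mean (all genes, 11.5% and 10.1%). Fabp5 (-0.61 ± 0.17) lay near the median of all genes. Against endothelial cells 6 were called higher, among them Fabp5 (1.23 ± 0.24), and 0 lower (all genes, 7.27% and 7.54%). Of the 11, 1 passed the filter only through the microglia and macrophages. Spp1, which encodes osteopontin, was found in 1 of 20 and 10 of 55 cells, with up to 3 and 13 UMIs per cell. Igf1, a growth factor, was found in 5 of 20 and 21 of 55 cells, at 132 and 177 CPM. Gpnmb, Itgax and Cst7 had at most 1 UMI in either library. Lgals1 followed Mrc1 instead, at 1009 and 1737 CPM on that side against 0 and 39.9 CPM. Apoe, the main apolipoprotein of the brain, was at 8043 and 10152 CPM against 754 and 541 CPM in endothelial cells.

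Cycling was measured by Mki67, found in 0 of 20 and 6 of 55 cells (10.9%, exact interval 4.11 to 22.2), and Top2a, found in 0 and 9 cells (16.4%). In all other kept barcodes with fewer than 2 markers Mki67 was found in 8.66% and 9.47%. After thinning to 1500 UMIs, Mki67 was left in 1 of the 55 cells. The 6 cells divided evenly between the Mrc1 and the P2ry12 side (3 of 25 and 3 of 20), and all 6 carried UMIs of both genes. At least 3 of 20 cycle genes were found in 25.0% and 43.6% of cells, and in 10.0% and 10.9% after thinning to 1500 UMIs. Without thinning, the same call held in 17.9% and 19.4% of the other barcodes and in 51.7% and 34.8% of endothelial cells. Over the 20 genes, 0 were called higher and 3 lower (Tpx2, Top2a and Cenpf) than the mean of the classes, and 1 lower (Tyms) than endothelial cells, where 10.1% and 7.54% of all genes were called lower.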

How the data were processed

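The authors deposited raw UMI counts per gene and barcode for each library, in filtered matrices of Cell Ranger (version 7.1.0 per the file headers, 7.0.0 in the submitters' processing notes, which name the build mm10). No value was normalized before deposit. All values here were computed from these counts with Python 3.11.15, scanpy 1.11.5 and R 4.3.3.

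Barcodes with 1500 to 60000 UMIs and under 10% mitochondrial UMIs were kept. Reference classes met the same limits, had under 2 of the 8 markers and belonged to 1 class alone: endothelial cells, mural cells, fibroblasts and progenitors showed at least 3 of their own markers without Neurod6 and Gad2, and neurons had at least 2 UMIs of Neurod6 or of Gad2 without the other. UMIs were summed per library and class, and every class that reached 20 cells in both libraries went into 1 fit (edgeR 4.0.16, TMM, quasi-likelihood test, Benjamini-Hochberg over all genes tested), which left mural cells and fibroblasts out. Genes needed at least 10 counts in at least 2 sums. The classes of a replicate came from the same library, so the library was a block; this pairing comes from the design and not from replicate numbers. The planned test of cells with P2ry12 alone against Mrc1 alone was not made, since replicate 1 had under 10 of each. No doublet caller was used in the main results, and removal by Scrublet score was an alternative, which took out 432 of 5966 and 1111 of 10247 kept barcodes and, among them, 6 of 20 and 19 of 55 microglia and macrophages. Intervals are exact (Clopper-Pearson or Poisson, 95%) and cover counting error only.

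The members and the gene lists were chosen with earlier results of these data known. Named genes were the markers, the 15 called genes with the largest increase and 5 with the largest decrease against the mean of the classes, the 5 in each direction against endothelial cells (all with at least 100 CPM on the higher side), and members of the lists. On simulated counts, the fit against endothelial cells over 15577 genes recovered 85.5% of log2 increases of 1.5 and 100% of 3, but 50% of decreases of 1.5 and 93.8% of 3. The simulated classes shared a single mean profile and a fixed spread, and changes were planted only in genes above a set expected count. Recovery under the spread of the real sums was not measured. Other alternatives were RLE size factors, DESeq2 1.42.0, no filter, no block, at least 4 markers and single libraries.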

Additional observations from a re-analysis of the deposited data

How the results depend on the processing

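The mean share of microglia and macrophages, 0.436%, was 0.634% under a limit of 5% mitochondrial UMIs, 0.600% with at least 2 markers, 0.769% with no gene held at 0, and 0.597% with at most 1 UMI of the 3 genes, a choice made after the data were seen, 0.324% with the barcodes of highest doublet score removed, and 0.335% to 0.537% in single libraries. P2ry12 alone (31.1%) came to 23.2% when at least 2 UMIs were needed, with single libraries at 27.3% and 35.0%. Mrc1 alone (17.5%) came to 35.9% after thinning, with single libraries at 15% and 20%. Both genes (29.1%) came to 4.55% after thinning and 10.7% at 2 UMIs, with single libraries at 20% and 38.2%. Neither (22.3%) was 14.5% and 30% in single libraries. Mki67 (5.45%) and Top2a (8.18%) were at 0% in replicate 1 and 10.9% and 16.4% in replicate 2. At least 3 cycle genes (34.3%) came to 10.5% after thinning, 11.6% with 5 genes, and 25.0% and 43.6% in single libraries.

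Without the replicate block, 1181 genes were called higher and 1272 lower than endothelial cells, and 1898 and 1736 against the mean of the classes. Over all alternatives the 4 counts stayed within 1.5 times of 1178, 1222, 1870 and 1641, the lowest being 806 and 820 with microglia and macrophages and endothelial cells fitted alone. The median over all genes against the mean of the classes was -0.49, -0.41 with RLE size factors and -0.11 with DESeq2, which changes size factors and model together. The largest changes by the fixed rule (20 genes against the mean, 10 against endothelial cells) kept their direction in single libraries, where no test was made, and their direction and side of the threshold in every alternative fit that gave a value; removal by doublet score gave none for 3 of the 30. Other listed genes were not run under the alternatives. No alternative was run for P2ry12 alone against Mrc1 alone, which had no test. Depth limited the values of replicate 1, where 1 UMI was 9.46 CPM.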

Other observations

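Antigen presentation was uneven. B2m, the light chain of class I molecules, stood at 1031 and 815 CPM in the microglia and macrophages and 209 and 198 CPM in endothelial cells, and H2-K1, a class I heavy chain, at 448 and 111 CPM on the Mrc1 side against 45.1 and 39.9 CPM on the P2ry12 side. The class II gene H2-Aa had no UMI, and Cd74, the class II invariant chain, had 3 and 10 UMIs in 1 and 7 cells. Of 8 tested interferon response genes 3 were called higher and 0 lower than the mean of the classes (all genes, 11.5% and 10.1%), and 2 higher and 1 lower (Ifitm3) than endothelial cells (all genes, 7.27% and 7.54%). Among them Bst2, which tethers virus particles at the cell surface, was at 224 and 425 CPM on the Mrc1 side and 67.7 and 59.9 CPM on the P2ry12 side.

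Lipid genes were mostly higher than the mean of the classes. Of 15 tested, 12 were called higher and 1, Scd2, lower than that mean (edgeR, all genes 11.5% and 10.1%). Scd2 stood at a log2 fold change of -0.69 where the median of all genes was -0.49. Against endothelial cells 8 were called higher and 1, Pltp, lower (all genes, 7.27% and 7.54%). Of the 15, 1 passed the filter only through the microglia and macrophages. Plin2, a coat protein of lipid droplets, was at 530 and 275 CPM against 56.7 and 40.9 CPM in endothelial cells, and Abca1, a cholesterol exporter, at 1210 and 993 CPM on the Mrc1 side against 406 and 449 CPM on the P2ry12 side. Among growth factor genes Bdnf and Vegfa had no UMI in the microglia and macrophages.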
